A study of Mus musculus with 12 samples.

Results

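The genes described here take part in the recognition and uptake of apoptotic cells: the receptors Axl, Mertk and Tyro3 (the TAM receptor tyrosine kinases), their ligands Gas6 and Pros1, the receptor Adgrb1, the engulfment adaptor Elmo1, the scavenger receptors Cd36 and Msr1, and the late endosomal glycoprotein Cd68. They were chosen by gene name from the deposited tables. All 10 were found among the 29957 named entries of the microglia table and 9 among the 14663 named entries of the hippocampus table. Adgrb1 stood in both tables under its older symbol Bai1, and Msr1 was without an entry in the hippocampus table. The 12 libraries come from C57BL/6 mice and form 4 groups of 3, namely microglia of the hippocampus at 24 months and at 3 months of age, and whole hippocampus at 18 months and at 6 months. The labels give no genotype beyond the strain and no treatment. Neither the way of isolating microglia nor a separate mouse behind each library is stated, and p-values measure only the spread between these libraries, which may be technical.

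Microglia, the resident macrophages of the brain, remove neurons and newborn cells that die in the hippocampus. A dying cell exposes phosphatidylserine on its surface. Gas6 and protein S, the product of Pros1, bind this lipid and bridge it to the TAM receptors: Mertk and Tyro3 bind both ligands, while Axl binds Gas6. In mouse macrophages Mertk is known as the receptor of the resting state and Axl as the one induced by inflammatory signals. Adgrb1, also called BAI1, binds phosphatidylserine directly and signals through Elmo1, which works with Dock proteins to activate Rac and reshape the actin cytoskeleton around the prey.

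The promoters of both main receptors are shown because Axl and Mertk are set against each other in the results. Those of the adaptor Elmo1 are shown because its average transcript length lay apart between the ages. Elmo1 has an upstream and a downstream promoter window, and some of its annotated transcripts begin elsewhere. Sequences are from RefSeq (GRCm38.p6), from 250 bases before to 50 bases after the annotated start, 5′ to 3′ on the gene's strand. The Axl window is chr7:25788684-25788983 (minus strand), the Mertk window chr2:128698665-128698964 (plus strand), and the windows at the upstream and the downstream start of Elmo1 are chr13:20090257-20090556 and chr13:20472740-20473039 (plus strand). Capitals mark matches, on either strand, to the GC box GGGCGG, the PU.1 site GAGGAAGT or the STAT site TTCNNNGAA.
Axl: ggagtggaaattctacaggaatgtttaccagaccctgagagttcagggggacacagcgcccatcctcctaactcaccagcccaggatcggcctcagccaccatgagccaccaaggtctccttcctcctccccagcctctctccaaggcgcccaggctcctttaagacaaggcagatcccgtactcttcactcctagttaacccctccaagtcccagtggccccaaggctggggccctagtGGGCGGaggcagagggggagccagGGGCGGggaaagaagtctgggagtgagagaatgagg
Mertk: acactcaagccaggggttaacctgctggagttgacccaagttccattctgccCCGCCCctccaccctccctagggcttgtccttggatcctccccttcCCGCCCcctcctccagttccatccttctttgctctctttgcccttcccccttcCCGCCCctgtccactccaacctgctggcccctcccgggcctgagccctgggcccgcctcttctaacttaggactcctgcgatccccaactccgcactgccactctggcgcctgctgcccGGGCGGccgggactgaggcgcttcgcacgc
Elmo1, upstream start: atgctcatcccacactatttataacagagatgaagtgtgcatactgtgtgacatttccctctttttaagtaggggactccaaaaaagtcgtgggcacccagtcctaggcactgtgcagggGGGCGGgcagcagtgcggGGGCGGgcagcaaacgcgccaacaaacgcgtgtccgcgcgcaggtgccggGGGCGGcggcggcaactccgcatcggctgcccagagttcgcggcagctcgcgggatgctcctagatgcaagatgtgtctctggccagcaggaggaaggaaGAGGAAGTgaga
Elmo1, downstream start: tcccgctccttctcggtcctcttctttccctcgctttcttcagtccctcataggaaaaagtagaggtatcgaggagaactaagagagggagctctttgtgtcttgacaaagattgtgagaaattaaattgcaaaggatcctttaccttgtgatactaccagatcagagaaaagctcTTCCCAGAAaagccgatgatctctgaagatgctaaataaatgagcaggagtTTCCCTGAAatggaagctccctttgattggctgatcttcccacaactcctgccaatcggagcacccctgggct
The Axl window held 2 GC boxes, which flank the start, and the Mertk window held 4. The upstream Elmo1 window held 3 GC boxes and 1 PU.1 site, and the downstream one held 2 STAT sites and no GC box. Over the 32851 mouse promoter windows of the same length, 35.7% held a GC box, 8.30% a STAT site and 3.20% a PU.1 site. The AP-1 site TGANTCA was found in 7.81% of all windows and the core of the interferon-stimulated response element in 3.44%, and neither stood in the 4 windows printed. Windows were matched for 8 of the 10 genes. Among those not printed, Tyro3 held 6 GC boxes, Gas6 4 and Cd36 2, Pros1 held 5 GC boxes and 1 STAT site, and Cd68 held 2 AP-1 sites and 1 GC box. The G and C content was 60.3% for Axl, 66.0% for Mertk, 60.0% for the upstream and 46.0% for the downstream start of Elmo1, against a median of 52.7% over all windows. A match of letters is a description and no evidence of binding.

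The microglia libraries held 8072855 to 14226478 estimated counts. All 10 microglial markers (Cx3cr1, P2ry12, Tmem119 and others) were present in every library, with a summed level of 54841 to 73481 CPM (counts scaled to the same library size) at 24 months and 75333 to 80211 CPM at 3 months. Libraries numbered 1 stood apart: the number of genes without a count, out of 7840 in the whole table whose mean exceeded 10 CPM, was 186 (2.37%) in 24 month replicate 1 and 394 (5.03%) in 3 month replicate 1, against 26 to 62 in the other 4. Early response genes such as Fos and Egr1 reached a summed level of 26078, 28687 and 1172 CPM in the libraries of 24 months, against 839 to 1447 CPM in those of 3 months. Monocyte and neutrophil markers summed to 2584, 50.8 and 3.61 CPM in the libraries of 24 months, against 2.79 to 9.60 CPM in those of 3 months. In whole hippocampus, all 8 neuronal markers were present in every library.

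Of the 7 members tested in microglia, Axl had the largest difference with age. Its level was 91.9, 46.9 and 90.1 CPM in the 3 libraries of 24 months, against 0.149, 5.36 and 8.31 CPM in those of 3 months. The lowest library of 24 months lay above the highest of 3 months, and 3 month replicate 1 was near 0, with 2 estimated counts. The means were 76.3 ± 25.5 CPM at 24 months (SD, n = 3) and 4.61 ± 4.13 CPM at 3 months (SD, n = 3), a ratio of 16.6. The log2 change was 4.05 ± 1.18 (SE) and did not pass edgeR's quasi-likelihood test after Benjamini-Hochberg adjustment over all genes (adjusted p = 0.629, unadjusted p = 0.00993). That test called 0.0% of 10663 genes, with 375 genes higher and 215 lower at an unadjusted p under 0.05. The authors' deposited table gives Axl a log2 change of 4.04 ± 1.05 with an adjusted p of 0.0113, one of 1.54% of 12083 genes that it calls higher at 24 months. DESeq2 run here on the same counts gave 4.06 with an adjusted p of 0.0182, and it called 1.57% of 12215 genes higher. The 2 methods thus part on Axl and on the genes as a whole, while the size of the difference was alike in both. In bulk samples a larger share of Axl-bearing cells and more Axl RNA per cell cannot be told apart.

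The Axl change was also fitted without the libraries numbered 1. Leaving libraries out cannot make groups that already lie apart overlap, so only the fits are given. Without 3 month replicate 1, the log2 change was 3.47 ± 0.55 (SE), with an unadjusted p of 5.08e-04 and an adjusted p of 0.868 in edgeR. Without both libraries numbered 1, it was 3.32 ± 0.57, with an adjusted p of 0.761. Axl reached 90.1 CPM in 24 month replicate 3, where the early response genes and the monocyte and neutrophil markers were at the level of the 3 month libraries. Both of those sums were above the 3 month libraries in 24 month replicates 1 and 2. Mural cell markers summed to 294.5, 38.8 and 0.759 CPM at 24 months, against 0.299, 0.873 and 0.408 CPM at 3 months. They were thus high in 24 month replicates 1 and 2, where Axl was 91.9 and 46.9 CPM, and low in 24 month replicate 3. Of the 8 mural markers, 5 were present in 24 month replicate 1, with Pdgfrb, Kcnj8 and Higd1b at 0. In 24 month replicate 2, 3 were present, with Tagln, Myh11, Pdgfrb, Kcnj8 and Higd1b at 0. Markers of border-associated macrophages, which live in the meninges and around vessels, summed to 0.949 CPM in 24 month replicate 3. There Mrc1, Pf4, Cd163, Lyve1, F13a1, Cbr2 and Clec10a were at 0. Endothelial markers summed to 51.8, 139.6 and 66.5 CPM at 24 months, against 23.5, 45.0 and 24.7 CPM at 3 months. Astrocyte markers summed to 346, 462 and 333 CPM at 24 months, against 128, 235 and 267 CPM at 3 months. Both of these sums were higher in every library of 24 months, as Axl was. Each sum rested mostly on 1 gene, by the authors' mean normalized counts. Slc1a3 stood at 2925, against 231 for Aldoc, the next astrocyte marker, and Pecam1 at 447, against 62.9 for Kdr, the next endothelial one. The astrocyte markers present numbered 3, 7 and 4 of 8 at 24 months, against 4, 3 and 4 at 3 months. For endothelial markers the numbers were 3, 7 and 3, against 5, 3 and 3. In 24 month replicate 3, 3 of 8 endothelial markers were present, with Cldn5, Kdr, Slco1c1, Slco1a4 and Ly6c1 at 0, and 4 of 8 astrocyte markers, with Aqp4, Gja1, Gjb6 and Aldh1l1 at 0. The part of any of these cells, or of the early response, in the Axl difference was not tested.

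**Figure D1:**
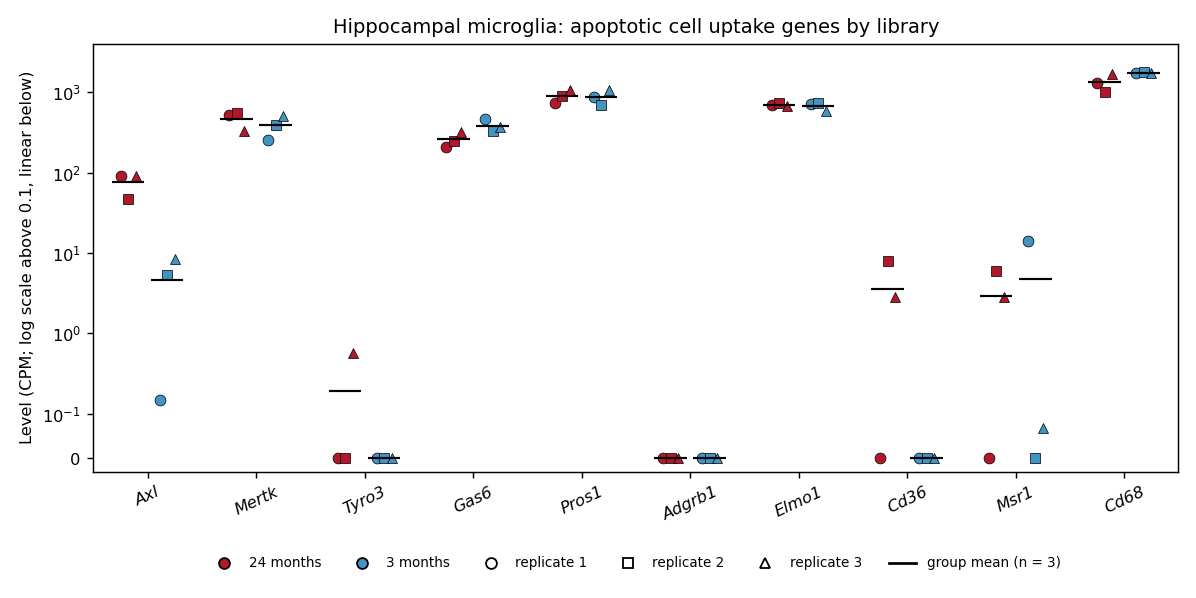
Level of the 10 genes in each microglia library, in CPM on a log scale above 0.1 (linear below), with 24 months in red, 3 months in blue, a symbol for each replicate number and bars at the group means (n = 3 each). Axl at 24 months (46.9 to 91.9 CPM) lies wholly above 3 months (0.149 to 8.31 CPM), while Mertk, Pros1 and Elmo1 overlap between the ages.

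Mertk, by contrast, overlapped between the ages. It was at 528, 552 and 326 CPM at 24 months, against 256, 397 and 510.5 CPM at 3 months. Its highest 2 libraries were of 24 months, but 24 month replicate 3 was below 2 of the 3 libraries of 3 months. The means were 468.6 ± 123.8 CPM at 24 months (SD, n = 3) and 387.8 ± 127.2 CPM at 3 months (SD, n = 3), and the log2 change was 0.27 ± 0.31 (SE; edgeR, adjusted p = 0.996). Without both libraries numbered 1 the direction turned, to -0.045. Tyro3, the TAM receptor known in brain mainly from neurons, was almost undetected in microglia: 24 month replicate 3 held 6 counts (0.570 CPM) and the other 5 libraries held 0, below floors of 3 counts that correspond to 0.204 to 0.374 CPM.

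The ligands of these receptors were present in every microglia library. Gas6 was at 209.8, 249 and 319 CPM at 24 months, against 461, 329 and 369.5 CPM at 3 months. Every library of 24 months lay below every library of 3 months, by a narrow margin between 318.9 CPM and 328.7 CPM. The means were 259 ± 55.2 CPM at 24 months (SD, n = 3) and 386 ± 67.6 CPM at 3 months (SD, n = 3), with a log2 change of -0.58 ± 0.23 (SE) that did not pass edgeR after adjustment (adjusted p = 0.875, unadjusted p = 0.0392). On the TPM scale the Gas6 groups touched, with 186.4 TPM in the highest library of 24 months against 184.9 TPM in the lowest of 3 months. Gas6 overlaps the protein-coding gene Tmem255b in the RefSeq annotation. Without a named strand-keeping kit, reads from any sequence that overlapping genes share cannot be told apart. Pros1 was at 739, 903 and 1069 CPM at 24 months, against 876, 696 and 1081 CPM at 3 months. The Pros1 groups overlapped throughout, with a log2 change of 0.032 ± 0.23 (SE; edgeR, adjusted p = 0.998).

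Genes can be compared with each other only per length, for which the authors' TPM values were used. Summed TAM receptor TPM was 247, 206 and 144 TPM at 24 months, against 88.2, 133 and 185 TPM at 3 months, so the groups overlapped. The make-up of that sum did not overlap. Axl made up 26.0%, 8.25% and 23.2% of the receptor TPM at 24 months, against 0.228%, 1.33% and 2.94% at 3 months. In TPM, Mertk exceeded Axl by factors of 2.84, 11.1 and 3.30 in the libraries of 24 months, against 438.3, 74.3 and 33.1 in those of 3 months. The values of 3 month replicate 1 rest on 2 Axl counts, for which the 95% Poisson interval (exact, counting error of Axl only) gives a share of 0.0276% to 0.817% and a factor of 121 to 3619. Shares and factors also depend on the average transcript length by which TPM divides. For Axl that length ran from 1010 to 4123 bases over the libraries, against 3759 to 4173 bases for Mertk. The highest Axl share at each age, in 24 month replicate 1 and 3 month replicate 3, went with Axl lengths of 1859.5 and 2244 bases. The part of this scatter in the shares was not tested. Mertk was the more abundant receptor per length in all 6 libraries. Summed ligand TPM was 416, 565 and 662 TPM at 24 months, against 649, 483 and 722 TPM at 3 months. Gas6 was 27.2%, 25.3% and 28.2% of it at 24 months, against 39.4%, 38.3% and 31.0% at 3 months. Pros1 exceeded Gas6 by 2.68, 2.95 and 2.55 times at 24 months, against 1.54, 1.61 and 2.23 times at 3 months. The Gas6 share lay lower in every library of 24 months, at 26.9 ± 1.45% at 24 months against 36.2 ± 4.57% at 3 months (SD, n = 3 each). These shares were given no test, since each is made from several members; an exact permutation test of 3 against 3 cannot go below 0.10.

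**Figure D2:**
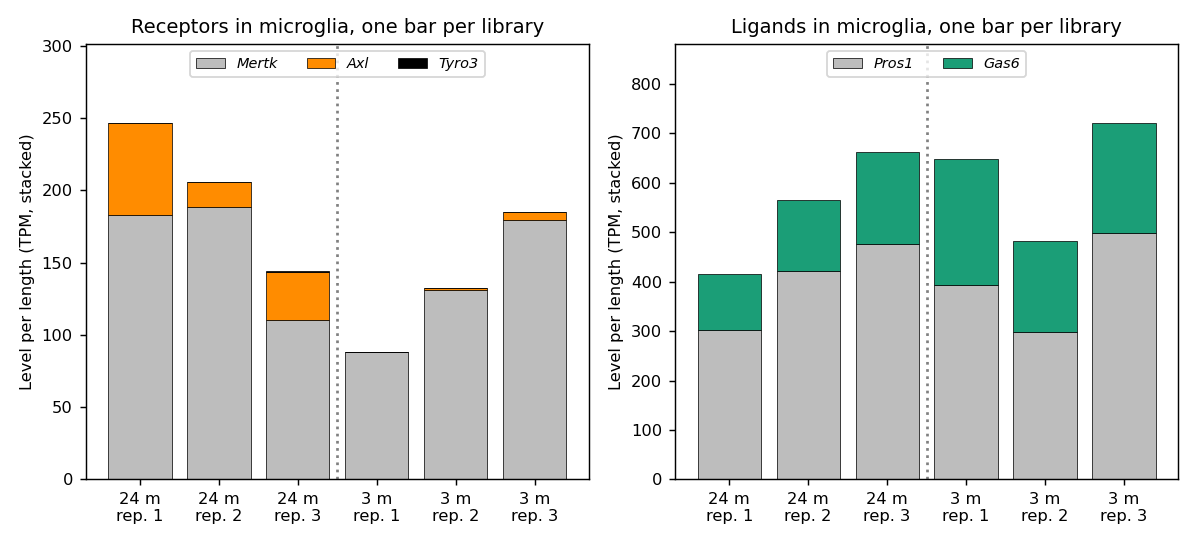
Stacked TPM of the TAM receptors (left) and of their ligands (right), with 1 bar for each microglia library and the 24 month libraries left of the 3 month ones. The Axl part of the receptor bar is 8.25% to 26.0% at 24 months and 0.228% to 2.94% at 3 months, while the total bars overlap between the ages.

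Ordered per length, Cd68 stood first at 24 months with a mean of 1700.0 TPM, followed by Pros1 with 400.3 TPM, Elmo1 with 212.3 TPM, Mertk with 160.5 TPM, Gas6 with 147.4 TPM and Axl with 38.2 TPM. Of these neighbours, Mertk and Gas6 overlapped between libraries and the others did not. At 3 months the order was Cd68 with 2239 TPM, Pros1 with 396.7 TPM, Gas6 with 221.3 TPM, Elmo1 with 180.6 TPM, Mertk with 132.8 TPM and Axl with 2.47 TPM. There Gas6 overlapped with Elmo1, Elmo1 with Mertk, and Axl with Msr1 at 1.87 TPM, while Mertk did not overlap with Axl.

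Adgrb1, the phosphatidylserine receptor upstream of Elmo1, had 0 counts in all 6 microglia libraries. Its partner Elmo1 was well expressed at both ages, at 694, 733 and 670.2 CPM at 24 months, against 724, 730.4 and 587 CPM at 3 months. The groups overlapped, and the log2 change was 0.040 ± 0.17 (SE; edgeR, adjusted p = 0.998). What differed was the average transcript length that the authors deposited beside the counts, which is lower where more of a gene's abundance was assigned to short transcripts. That length also varied slightly, from 2405 to 2451 bases, for Gas6, which has 1 transcript listed in the GENCODE annotation. For Elmo1 the average length was 4210, 4438 and 4851 bases at 24 months, against 5336, 5262 and 5077 bases at 3 months. All libraries of 24 months lay below all of 3 months, with means of 4500 ± 325 bases at 24 months against 5225 ± 133 bases at 3 months (SD, n = 3 each). Average lengths were that way round, without overlap, for 5.03% of 10663 tested genes, and 80.5% of tested genes had a smaller difference between the group means. Per length, Elmo1 was accordingly at 215, 228 and 194 TPM at 24 months, against 184, 188 and 169.7 TPM at 3 months, again without overlap. Such a separation upwards in TPM was seen for 7.05% of tested genes. With the transcript lengths as an offset, edgeR gave a log2 change of 0.25 ± 0.17, which did not pass.

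GENCODE M21 lists 7 Elmo1 transcripts of 552 to 5464 bases. The longest begins near the upstream start, while a retained-intron transcript of 3748 bases begins at position 20472726 of chromosome 13, by the downstream window printed above. Others, such as those of 2020 and 552 bases, begin between those windows. Transcript-level values were not used here, so which transcripts make the difference in average length was not measured. Elmo1 also overlaps the lncRNA Gm32036 in the RefSeq annotation. Axl had the widest spread in average length among the members: 1859.5, 3815 and 3794 bases at 24 months, against 1009.5, 4123 and 2244 bases at 3 months. The longest was 4.08 times the shortest, a wider range than in 95.0% of tested genes, and the age groups overlapped. The lowest Axl length belongs to the library with 2 counts. GENCODE lists 8 Axl transcripts of 382 to 4265 bases, 2 Mertk transcripts and 1 Gas6 transcript. With lengths as an offset the Axl log2 change was 4.01 ± 1.11 (SE; edgeR, adjusted p = 0.607).

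**Figure D3:**
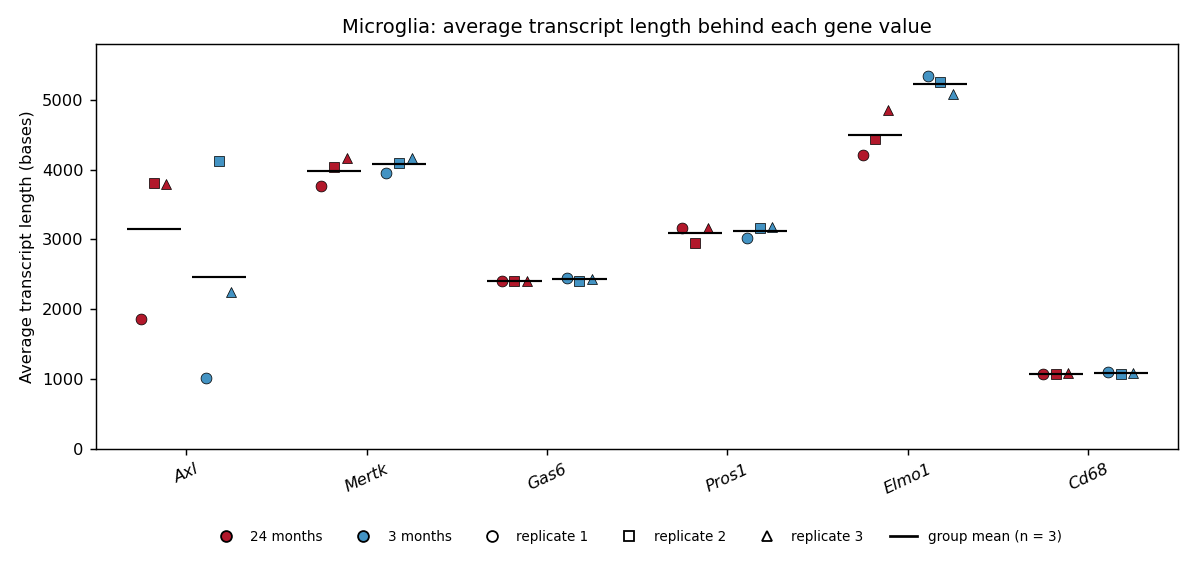
Average transcript length in bases, as deposited, in each microglia library for 6 members, with 24 months in red left of 3 months in blue and bars at the group means (n = 3 each). Elmo1 lies at 4210 to 4851 bases at 24 months and 5077 to 5336 bases at 3 months, Axl is scattered at both ages, and the lengths of Gas6 and Cd68 differ little between libraries.

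The scavenger receptors were low and patchy in microglia. Cd36, a receptor for oxidized lipids that also binds apoptotic cells, held 0, 79 and 29.5 counts at 24 months (0, 7.97 and 2.85 CPM), and 0 in all 3 libraries of 3 months. Its summed level at 24 months was 43.7 times that of a floor of 3 counts over the 3 month group, a lower bound on the ratio between the ages. However, 24 month replicate 1 held no count. It fell below the filter on low counts; without that filter the adjusted p was 0.718 in edgeR, and the authors' deposited table gives 0.341. Border-associated macrophage markers summed to 4.87, 36.0 and 0.949 CPM in the libraries of 24 months, against 1.34, 1.25 and 6.33 CPM at 3 months. They were highest where Cd36 was highest, with 5 of 8 markers present and Lyve1, Cbr2 and Clec10a at 0, but were higher in 24 month replicate 1, which lacked Cd36, than in 24 month replicate 3. The endothelial sums given above stood in the same order as Cd36 over the 24 month libraries, with 7 of 8 markers present and Tek at 0 in the highest. The part of either cell type in the Cd36 values was not tested. Msr1, the class A scavenger receptor, held 0, 58.9 and 30 counts at 24 months, against 190.0, 0 and 1 counts at 3 months. Both ages thus had a library without Msr1, and the highest was 3 month replicate 1. Its log2 change of -0.70 ± 2.38 (SE; edgeR, adjusted p = 0.998) became 5.85 without that library (adjusted p = 0.894).

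Cd68, a marker of the phagocytic endosome and lysosome system, was the most abundant member. It was at 1304, 1011 and 1709 CPM at 24 months, against 1753, 1774 and 1726 CPM at 3 months. All libraries of 24 months lay below all of 3 months, with 24 month replicate 3 close to them. The means were 1341 ± 350.3 CPM at 24 months (SD, n = 3) and 1751 ± 24.2 CPM at 3 months (SD, n = 3), and the log2 change of -0.38 ± 0.21 (SE) did not pass (edgeR, adjusted p = 0.967). Without 24 month replicate 3 it was -0.62 (adjusted p = 0.262). The lower pair, 24 month replicates 1 and 2, were also the libraries with high early response genes and with the lowest summed microglial markers, and the part of either in the Cd68 values was not tested. Per length the Cd68 groups overlapped, with 2217 TPM in the highest library of 24 months against 2153 TPM in the lowest of 3 months.

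Counted over the 7 members that passed the filter on low counts, groups did not overlap for 1 that was higher at 24 months (Axl) and 2 that were lower (Gas6 and Cd68). Over all tested genes the shares were 7.26% higher and 6.18% lower. None of the 7 passed edgeR's test. In the authors' deposited table, 1 of the 8 members with an adjusted p was called, Axl, which was higher, and none was called lower, where the table calls 1.54% of all its genes higher and 0.472% lower.

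The rest of the uptake pathway was examined through 10 lists of 92 genes in all, the members included, of which 68 were tested in microglia. None passed edgeR after adjustment, and 5 were higher and 3 lower at an unadjusted p under 0.05. In the mean, 28 were higher and 40 lower at 24 months. The same counts over all 10663 tested genes were 375 and 215 at that unadjusted p, and 5388 and 5275 in the mean. The median log2 change of the 68 was -0.26, against 0.010 over all tested genes. Genes named in the next paragraphs whose lists showed them to move, namely Olr1, Cxcl16, Cd300a, Scarf1, Tmem30a and P2ry6, were picked after their values were seen.

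Among other phosphatidylserine receptors, 6 of 7 tested had a lower mean at 24 months and the median log2 change was -0.55. Of the 10 microglial markers, 8 also had a lower mean, with a median log2 change of -0.33 and, for example, -0.52 for Csf1r and -0.54 for Tmem119, and their part in the list's values was not tested. Cd300a, an inhibitory receptor for phosphatidylserine, was at 296, 249 and 371 CPM at 24 months, against 487, 466 and 388 CPM at 3 months. The Cd300a groups did not overlap (log2 change -0.55 ± 0.21 SE; edgeR, adjusted p = 0.871). The integrin chain Itgb5, which pairs with Itgav to bind the bridging protein Mfge8, was at 43.4, 93.6 and 120.5 CPM at 24 months, against 138, 139 and 161 CPM at 3 months. These groups also lay apart, with a log2 change of -0.77 ± 0.38 (edgeR, adjusted p = 0.958). Itgav had a log2 change of -0.57 ± 0.38, Mfge8 of -0.24 ± 0.65 and Cd300lf, a further phosphatidylserine receptor, of 1.02 ± 1.18, and none passed the test. Scarf1, a receptor for C1q-coated apoptotic cells, had 0 counts at 24 months, against 128, 9 and 12 counts at 3 months. It fell below the filter, and the authors' deposited table gives it a log2 change of -7.74 with an adjusted p of 0.0445. Timd4, a phosphatidylserine receptor of peritoneal macrophages, held 1 count in 1 library of 3 months and 0 elsewhere.

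In engulfment signalling, 5 of 11 tested genes had a higher and 6 a lower mean, with a median log2 change of -0.31. Rac1, the GTPase that Elmo and Dock proteins activate, was at 61.3, 62.1 and 97.1 CPM at 24 months, against 51.4, 46.4 and 42.2 CPM at 3 months. Its groups did not overlap, and the log2 change of 0.66 ± 0.36 did not pass (edgeR, adjusted p = 0.967). Dock2, the Dock protein of blood and immune cells, had a log2 change of 0.31 ± 0.19, Dock1 of 0.13 ± 0.54 and Elmo2 of -0.54 ± 0.47. The adaptor Gulp1 was too low to test.

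Scavenger receptors were split, with 2 of 7 tested genes higher and 5 lower at 24 months. Cxcl16, a membrane-bound chemokine that also takes up oxidized lipoprotein, was at 236, 145 and 155 CPM at 24 months, against 67.0, 94.9 and 67.5 CPM at 3 months. Its groups did not overlap (log2 change 1.23 ± 0.29 SE; edgeR, adjusted p = 0.539). Olr1, the lectin-like receptor for oxidized lipoprotein, was low but higher in each library of 24 months, at 2.86, 8.37 and 3.23 CPM, against 0.299, 0 and 0.136 CPM at 3 months. Its log2 change was 4.90 ± 1.46 in edgeR (adjusted p = 0.657), and the authors' deposited table gives 5.25 with an adjusted p of 3.75e-04. Lrp1, which takes up many ligands including lipoproteins, had a log2 change of -0.22 ± 0.21 and Scarb1 of -0.57 ± 0.66.

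**Figure D4:**
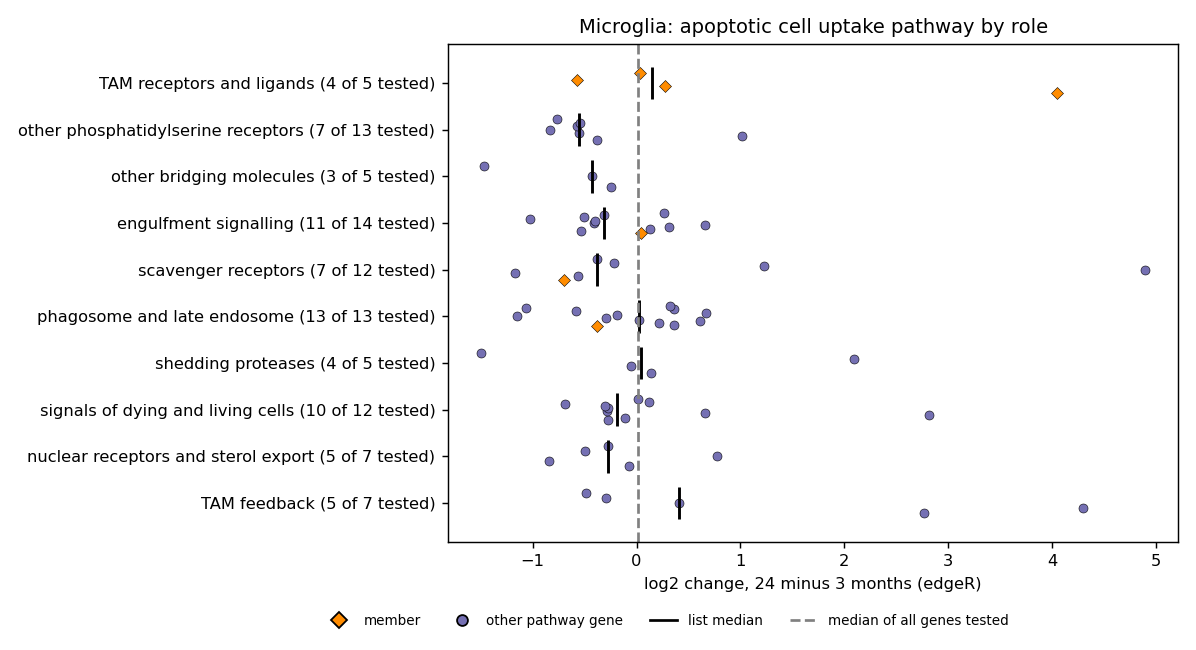
Log2 change in microglia, 24 minus 3 months, of each tested pathway gene by list, with members as orange diamonds, other genes as purple circles, list medians as black bars and the median of all tested genes (0.010) as a dashed line. Axl at 4.05 stands apart from the other TAM genes, which lie between -0.58 and 0.27, and 6 of 7 other phosphatidylserine receptors lie left of 0.

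Of the 13 phagosome and late endosome genes, all tested, 7 had a higher and 6 a lower mean, with a median log2 change of 0.020. Lamp1, a lysosomal membrane protein, had a log2 change of 0.36 ± 0.26 and Rab7, the GTPase of late endosomes, of 0.020 ± 0.16, neither past edgeR's test. Of the proteases that shed Mertk and Axl from the cell surface, Adam10 had a log2 change of 0.14 ± 0.20 and Adam17 of -0.052 ± 0.19, neither past edgeR's test.

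Among signals of dying and living cells, 4 of 10 tested genes had a higher and 6 a lower mean. P2ry6, the nucleotide receptor that drives microglial phagocytosis, was at 242, 352 and 513 CPM at 24 months, against 713, 553 and 517 CPM at 3 months, without overlap but with a gap of a few CPM (log2 change -0.69 ± 0.29; edgeR, adjusted p = 0.898). Tmem30a, the chaperone of the flippases that keep phosphatidylserine inside the membrane, was at 106, 107 and 118 CPM at 24 months, against 85.8, 55.9 and 68.6 CPM at 3 months (log2 change 0.66 ± 0.28; edgeR, adjusted p = 0.896). The inhibitory pair Sirpa and Cd47, by which living cells hold off phagocytes, had log2 changes of -0.30 ± 0.25 and -0.27 ± 0.35.

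TAM receptors dampen cytokine signals through Socs proteins. Socs3 was at 591, 714 and 17.8 CPM at 24 months, against 1.49, 29.1 and 36.8 CPM at 3 months. The groups overlapped, because 24 month replicate 3 lay between the libraries of 3 months; Axl was high in that library. The early response genes showed the same division between 24 month replicates 1 and 2 and the rest, and their part in the Socs3 values was not tested. The Socs3 log2 change was 4.30 ± 1.44 (edgeR, adjusted p = 0.787), and the authors' deposited table gives 4.32 with an adjusted p of 0.0487. Sterol exporters, which the nuclear receptors activated by engulfed lipid are known to induce, were lower in the mean without passing the test: Abca1 had a log2 change of -0.50 ± 0.51 and Abcg1 of -0.27 ± 0.18. Nr1h3, one of those receptors, was too low to test.

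In the authors' deposited microglia table, 71 of the 92 pathway genes have an adjusted p. It calls 3 higher at 24 months (Axl, Olr1 and Socs3) and 1 lower (Scarf1), where over all 12083 genes it calls 1.54% higher and 0.472% lower.

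The genes whose pattern over the 6 microglia libraries was most like that of Axl were Rap2c, Ifi27l2a, Insr, Pdcd1 and Pck2. Likeness was the root mean square difference of log2(CPM + 1) after each gene's own mean was taken away, over the 7819 genes that passed the filter on low counts and had a mean of at least 10 CPM. It was 0.385 for Rap2c and 0.639 to 0.694 for the others, against a median of 2.39 over all genes. Rap2c was at 47.6, 32.1 and 34.2 CPM at 24 months, against 0, 2.49 and 5.99 CPM at 3 months. As with Axl, 3 month replicate 1 was at or near 0 for all 5. Mertk ranked 2044 in likeness to Axl, with a difference of 2.11. The genes most like Mertk were Hmbox1, Rbm5, Srp54b, Ang and Pla2g4a, with differences of 0.101 to 0.144 against a median of 0.785. A choice of the nearest among so many genes over 6 libraries is a description.

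Whole hippocampus was compared at 18 and 6 months in a separate table of normalized counts, in which no level can be set against those of microglia. All 10 microglial markers were present, and their sum was 849, 817 and 858 normalized counts at 18 months, against 716, 665 and 590.1 at 6 months. None of the 8 tested members passed limma's test on log2(normalized count + 1), which called 0.0% of 13491 genes, with 288 higher and 437 lower at an unadjusted p under 0.05. For 0 of these 8 did the age groups lie apart, as they did for 11.0% of all tested genes. The authors' deposited table calls none of the 8 members with an adjusted p, and 0.305% of 11818 genes in either direction.

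Axl was at 42.3, 55.6 and 36.1 normalized counts at 18 months, against 56.4, 102.4 and 28.5 at 6 months. The groups overlapped, with both the highest and the lowest library at 6 months, and the log2 change was -0.32 ± 0.43 (SE; limma, adjusted p = 0.947). Without 6 month replicate 2 it turned to 0.13. Mertk was at 43.3, 13.2 and 40.4 at 18 months, against 28.5, 41.5 and 26.8 at 6 months, and the lowest library was 18 month replicate 2 (log2 change -0.14 ± 0.51; limma, adjusted p = 0.980). Tyro3, almost absent from the microglia libraries, was present in every hippocampus library, at 29.5, 58.4 and 94.0 at 18 months, against 54.7, 48.5 and 54.8 at 6 months. Its 18 month libraries spread to both sides of those of 6 months (log2 change 0.054 ± 0.39; limma, adjusted p = 0.993).

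Gas6 was at 147.1, 189.9 and 107.9 normalized counts at 18 months, against 66.2, 155.3 and 121.3 at 6 months. It overlapped between the ages, with a log2 change of 0.42 ± 0.31 (limma, adjusted p = 0.917). Pros1 was at 26.1, 14.1 and 19.5 at 18 months, against 26.1, 1.74 and 21.3 at 6 months, and only 6 month replicate 2 was out of the common range. Its log2 change was 0.78 ± 0.84 (limma, adjusted p = 0.932), and -0.27 without that library.

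Adgrb1, at 0 in microglia, was present in every hippocampus library, at 29.5, 23.5 and 11.5 normalized counts at 18 months, against 16.8, 9.42 and 11.7 at 6 months. The highest 2 libraries were of 18 months, but the groups overlapped (log2 change 0.66 ± 0.63; limma, adjusted p = 0.928). Elmo1 was at 99.2, 72.3 and 90.9 at 18 months, against 63.7, 85.4 and 105.1 at 6 months, which overlapped throughout (log2 change 0.062 ± 0.27; limma, adjusted p = 0.986). Cd36 was listed at 0, 0 and 1.44 at 18 months, against 0, 13.4 and 0 at 6 months, and was too low to test. Cd68 was at 26.5, 15.1 and 10.4 at 18 months, against 19.5, 19.3 and 10.4 at 6 months, with a log2 change of 0.027 ± 0.63 (limma, adjusted p = 0.998). Its groups shared nearly the same range, although the summed microglial markers were higher in every library of 18 months.

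**Figure D5:**
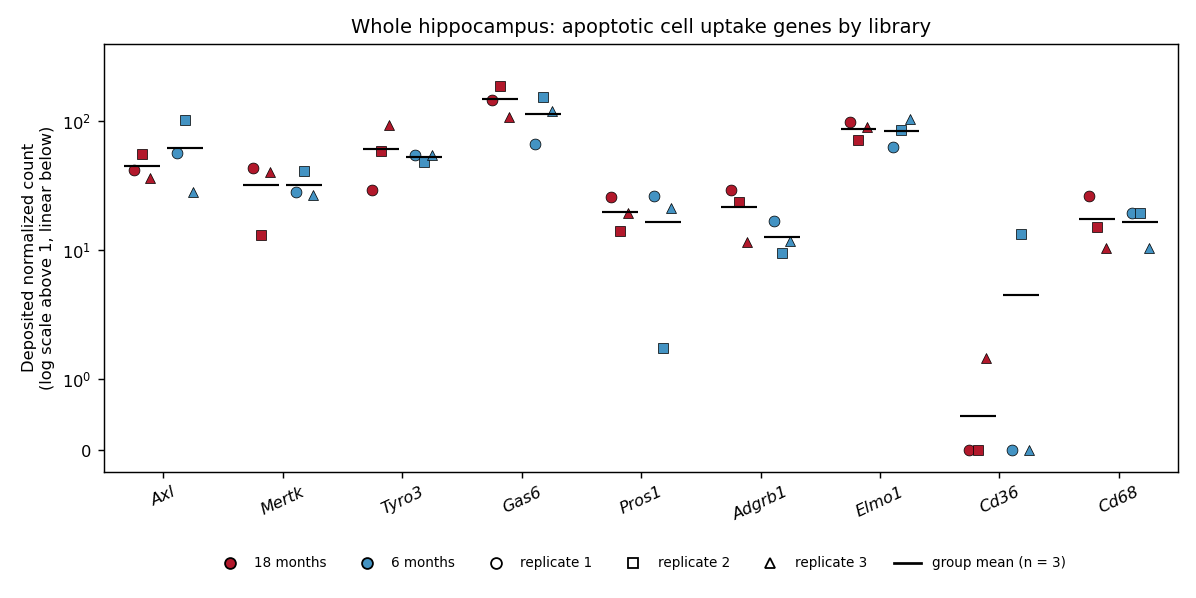
Deposited normalized counts of 9 members in each whole hippocampus library, on a log scale above 1 (linear below), with 18 months in red left of 6 months in blue and bars at the group means (n = 3 each). The ages overlap for every gene shown, and Tyro3 and Adgrb1 (listed as Bai1), which are at or near 0 in microglia, are present in all 6 libraries.

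In the wider pathway, 73 of the 92 genes were tested in hippocampus. None passed limma, and 34 had a higher and 39 a lower mean at 18 months, against 6363 and 7128 over all tested genes. The median log2 change of the 73 was -0.027, against -0.037 over all tested genes. Rac1 was at 344, 485 and 369.6 normalized counts at 18 months, against 338, 103 and 199 at 6 months. The groups lay apart by a narrow margin, and the log2 change of 1.04 ± 0.32 (SE) did not pass after adjustment (limma, adjusted p = 0.877). Elmo2, a relative of Elmo1, was lower in every library of 18 months, with 229.6, 176 and 206 against 282, 279 and 254 at 6 months (log2 change -0.42 ± 0.18; limma, adjusted p = 0.890). Mrc1, a mannose receptor of border-associated macrophages, was low. It was listed at 0 in all 3 libraries of 18 months, against 2.08, 8.17 and 3.54 at 6 months. Its log2 change of -2.33 ± 0.86 did not pass (limma, adjusted p = 0.877). The sum of border-associated macrophage markers, Mrc1 included, overlapped between the ages. That sum was 3.52, 27.5 and 0 normalized counts at 18 months, against 14.3, 27.4 and 11.6 at 6 months. Mfge8, the bridging protein made by astrocytes among others, was at 210.4, 279.9 and 306 at 18 months, against 240.1, 282 and 265 at 6 months, which overlapped.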

How the data were processed

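Members and gene lists were chosen with earlier results of these data known. Tools named without a version in the submitters' processing notes are kallisto, DESeq and DESeq2, and the builds named there, GRCm39 and mm10, carry no role. The microglia file deposited by the authors holds TPM, estimated counts and an average length for each gene in each library, per the file headers. Comparison tables deposited by the authors hold, for either tissue and per the file headers, normalized counts (a signal made comparable between samples), log2 fold changes with their errors, a score (the test statistic) and p-values, raw and adjusted. The sign of the deposited log2 change equalled that of older over younger for 99.87% of 12775 microglia genes and for 2.941% of 13024 hippocampus genes, so the hippocampus values were turned round. Every log2 change given is older minus younger.

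After rounding, the estimated counts of the 6 microglia libraries went into edgeR's quasi-likelihood test (edgeR 4.0.16, R 4.3.3), scaled by TMM, and filterByExpr left 10663 genes. CPM are on the TMM-scaled library. The SE is the log2 change divided by the square root of F. For hippocampus, normalized counts but no counts were at hand, so the planned edgeR test gave way to its fallback: limma 3.58.1 with a mean trend on log2(normalized count + 1), a pseudocount of 1, for 13491 genes with at least 1 in at least 3 samples. That scale understates the change of low genes. Since only 15.3% to 18.3% of low hippocampus values were whole multiples of a step (tolerance 0.1), reads could not be recovered, depth is unknown and no interval is given; columns summed to 974372 to 1002839. P-values were two-sided and adjusted by Benjamini and Hochberg's method across every gene tested in a comparison, with a threshold of 0.05. The fits were tested on simulated data with the same spread setting for all genes and no library set apart. The microglia libraries differ from that, so this test says little about the calls made here. An entry without a gene name (0.0546% to 0.0771% of counts, 0.0233% to 0.0335% of hippocampus signal) was left out. Floors of 3 counts cover counting error only, since the labels name no molecular identifiers. The genes named are all members, 23 pathway genes taken whatever their result, and the 5 most like Axl and Mertk; others were picked after their values were seen. Alternatives were other scalings (edgeR with RLE factors, quantile normalization), DESeq2 1.42.0, length offsets, TPM, pseudocounts, filters, a replicate block and leaving out samples.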

Additional observations from a re-analysis of the deposited data

How the results depend on the processing

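In microglia, 87 of 98 values of the 7 tested members under other settings kept their direction and their side of the threshold. Axl (log2 change 3.32 to 4.81) passed under DESeq2 with its own size factors and with transcript lengths (the second was chosen after seeing the data), and under none of the other settings. Reversed values were Msr1 0.0543 (TPM), 4.03 (replicate block) and 6.43 (without both libraries numbered 1, an alternative added after seeing the data), and Mertk -0.0446 (the same). With single libraries left out, Msr1 ran between -1.75 and 5.85, Elmo1 between -0.0708 and 0.0831 and Pros1 between -0.13 and 0.19. Genes called were 192 higher and 57 lower with DESeq2, 189 and 58 with lengths, 2 higher with log2(TPM + 1), and 0 to 50 higher and 0 to 5 lower with single libraries left out, the 50 and 5 without 24 month replicate 3. In hippocampus 78 of 88 values held. With single libraries left out, Axl ran between -0.78 and 0.13, Mertk between -0.43 and 0.39, Tyro3 between -0.33 and 0.49, Pros1 between -0.27 and 1.38, Elmo1 between -0.13 and 0.23 and Cd68 between -0.32 and 0.32, and 0 to 1 genes were called higher, the 1 without 6 month replicate 1. The causes were not tested. Same-numbered samples were not paired by the labels, and their deviations correlated at -0.0270 to 0.0649 in microglia and 0.00941 to 0.0142 in hippocampus; with the replicate block 0 genes were called in either tissue, and Axl was at 4.63 in microglia (adjusted p = 0.958). With 3 samples a group, differences within the spreads given were not detectable, and the low counts of Cd36, Msr1 and Tyro3 limit what can be said of them.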

Other observations

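Several pathway genes not described above set single libraries or tissues apart. Stab1, a receptor that binds phosphatidylserine and scavenges modified proteins, averaged 395 ± 51.8 CPM in microglia of 24 months (SD, n = 3) and 513 ± 48.5 CPM in those of 3 months (SD, n = 3), without overlap (log2 change -0.38 ± 0.18; edgeR, adjusted p = 0.952). Anxa1, which bridges phosphatidylserine and is abundant in neutrophils, held 592, 1 and 0 counts in microglia of 24 months, against 0, 0 and 1 counts at 3 months. The library with 592 counts is the one whose monocyte and neutrophil markers summed to 2584 CPM. Itgb3, an integrin chain that pairs with Itgav, was at 1.16, 75.4 and 61.0 CPM at 24 months, against 44.3, 92.9 and 63.5 CPM at 3 months, and 24 month replicate 1 alone was near 0.

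Of the 11 tested signals of dying and living cells, Xkr8 lay apart upwards and Tmem30a downwards in hippocampus. Over the 73 tested pathway genes, 2 lay apart upwards and 5 downwards, where the age groups lay apart for 11.0% of all 13491 tested genes. Xkr8, the scramblase that exposes phosphatidylserine on dying cells, was at 14.7, 21.0 and 10.8 normalized counts at 18 months, against 5.61, 1.47 and 2.59 at 6 months (log2 change 2.04 ± 0.82; limma, adjusted p = 0.877). Tmem30a was at 392, 360.3 and 366 normalized counts at 18 months, against 588, 469 and 450.4 at 6 months (log2 change -0.42 ± 0.15; limma, adjusted p = 0.877). Neither passed the adjusted test. In microglia, Tmem30a lay higher in every library of 24 months. These genes were picked after their values were seen.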
